A study of Homo sapiens with 14 samples.

Results

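The arrays described here compared LNCaP cells given the synthetic androgen R1881 alone with control cells. They were chosen by their titles, which pair R1881-treated with control RNA, and they number 4 of the 14 arrays of the series. LNCaP is an established human prostate cancer cell line that carries a mutated but responsive androgen receptor. R1881 (methyltrienolone) is a stable ligand of that receptor.

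The R1881 group received 1 nM R1881 for 24 h. The control group was left without it. Both had been plated for 36 h in full medium and then grown for 48 h with charcoal-stripped serum, which removes most steroids, so the controls are androgen-deprived cells. Other flasks received 25 µg/ml cycloheximide (CHX), a blocker of protein synthesis, with or without R1881, and they are used here only beside the R1881 response. Total RNA was amplified, coupled to the dyes Cy3 and Cy5, and hybridised as pairs to 2-colour arrays of 27648 probes. There were 2 culture experiments, each hybridised in both dye orientations.

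The androgen receptor is a ligand-activated transcription factor. Bound to androgen it enters the nucleus, binds DNA at androgen response elements and recruits coactivators, and in prostate cells it drives genes of secretion such as the kallikreins. In LNCaP cells low androgen concentrations also stimulate division, so that cell cycle genes are commonly measured beside the direct targets. CHX is used in such designs because a transcript that responds while protein synthesis is blocked does not need newly made protein to do so.

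Each value is the log ratio of R1881 over control for a probe on an array, taken as log2 because the base is not stated. Probes that share a gene were averaged, which gave 14547 named genes. The 4 array values of a gene are listed with experiment 1 before experiment 2 and, within each, the array with R1881 in Cy3 before that with R1881 in Cy5. Errors given with ± are SDs between experiments (n = 2, the dye orientations averaged first). The labels do not say which RNA is the numerator, and a single sign for every array was set so that TMPRSS2, a known androgen-induced gene, lies above 0. Every direction below is therefore likely rather than certain, and the direction of TMPRSS2 is not a result.

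The log2 ratios had an SD over probes between 0.18 and 0.25 on the 4 arrays, and few genes stood out from that spread. Across probes the dye-swap partners correlated at r = 0.134 in experiment 1 and r = 0.216 in experiment 2, below the r = 0.307 and r = 0.269 of the arrays of different experiments that had R1881 in the same dye. Averaged over dyes, the 2 experiments correlated at r = 0.376 over genes, and these correlations are descriptions over features that share arrays. The sign followed the dye in both experiments in 2159 genes, and 6 of them did so with at least 1.25-fold on each array. The files hold ratios and no levels, so the cell line could not be checked by the level of its markers, and in such bulk RNA fewer cells of a type and less RNA per cell cannot be told apart.

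Sequence just upstream of the gene start is shown for KLK3, the prostate-specific antigen gene that marks the androgen response, and for RRM2, CCNB2 and HMMR, members of the replication and mitosis genes that lay above 0 with R1881. These 250 bases before the start come from RefSeq (GRCh38.p14), read 5′ to 3′ on the plus strand, the strand of all 4 genes. For KLK3 the capitals mark AGAACA, the hexamer of androgen response elements. For the other genes they mark CCAAT or its reverse complement ATTGG, the box bound by the factor NF-Y, and TTTGAA, the letters of the cell cycle homology region. Both strands were searched, and adjoining or overlapping matches run together. The genes shown are examples. Of the listed replication and mitosis genes with a promoter, 66.7% held CCAAT and 27.6% held TTTGAA.
KLK3 (chr19:50854665-50854914): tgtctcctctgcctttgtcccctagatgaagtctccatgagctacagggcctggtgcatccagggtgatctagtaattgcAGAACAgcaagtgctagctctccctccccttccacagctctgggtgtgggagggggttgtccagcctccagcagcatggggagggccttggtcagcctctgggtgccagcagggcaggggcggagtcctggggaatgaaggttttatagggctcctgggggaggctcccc
RRM2 (chr2:10122489-10122738): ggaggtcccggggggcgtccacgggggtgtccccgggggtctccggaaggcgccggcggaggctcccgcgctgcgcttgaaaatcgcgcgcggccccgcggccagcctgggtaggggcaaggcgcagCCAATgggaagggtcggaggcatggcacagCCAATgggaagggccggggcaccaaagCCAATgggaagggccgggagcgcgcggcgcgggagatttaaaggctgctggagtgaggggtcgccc
CCNB2 (chr15:59104896-59105145): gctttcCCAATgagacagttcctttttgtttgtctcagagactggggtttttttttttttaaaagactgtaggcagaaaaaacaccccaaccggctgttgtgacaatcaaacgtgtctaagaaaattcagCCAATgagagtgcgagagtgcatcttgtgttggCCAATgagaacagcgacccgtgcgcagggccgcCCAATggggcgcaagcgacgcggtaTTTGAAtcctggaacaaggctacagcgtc
HMMR (chr5:163460382-163460631): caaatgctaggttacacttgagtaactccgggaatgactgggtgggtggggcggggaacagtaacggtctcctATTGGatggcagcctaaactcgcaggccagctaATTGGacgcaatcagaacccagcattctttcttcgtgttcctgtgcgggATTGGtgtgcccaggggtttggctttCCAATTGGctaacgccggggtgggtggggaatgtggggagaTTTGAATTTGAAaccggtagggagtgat

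R1881 was set against control to find transcripts that differ after 24 h of androgen. The genes that lay farthest above 0 were known androgen targets (TRPM8, TMPRSS2, KLK3, KLK2, C1orf116), a group of other genes (TM4SF1, SCD5, GNG3) and genes of DNA replication and repair (MCM10, BRCA1). The genes farthest below 0 included PKIB and the nuclear noncoding RNAs MALAT1 and NEAT1. With 2 experiments, limma's moderated test called TMPRSS2 (0.00687% of the 14547 genes) as higher, at an adjusted p of 0.0202 by Benjamini-Hochberg, and 0 genes (0%) as lower, while 921 genes (6.33%) had an unadjusted p under 0.05. A fit that counted dye-swap partners as separate arrays, with each experiment of a treatment as a random block, called 104 genes (0.715%) as higher and 68 (0.467%) as lower. The partners hold the same extracts, yet this fit had 9 residual degrees of freedom against 3. Its calls therefore lean on technical repeats.

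TMPRSS2, a membrane serine protease gene, had 1.84, 1.72, 1.57 and 1.49 on the 4 arrays. Its call was lost when either R1881 experiment was left out (adjusted p = 0.0947 without experiment 1 and 0.270 without experiment 2). TM4SF1, a membrane protein of the L6 family, had 1.70, 1.68, 1.65 and 1.75, with the 4 arrays close together. TRPM8, a cold-gated cation channel, had 2.25 and 2.27 in experiment 1 but 1.29 and 1.38 in experiment 2. The experiments did not overlap for this gene, and its mean of 1.80 ± 0.65 had an adjusted p of 0.188.

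SCD5, a stearoyl-CoA desaturase, had 1.04, 1.49, 1.36 and 1.96. It was higher on the array with R1881 in Cy5 in both experiments, and its mean was 1.46 ± 0.28. GNG3, a G protein gamma subunit, had 1.60, 1.63, 1.14 and 1.13. HES6, a transcriptional regulator of the HES family, had 1.02, 0.81, 1.11 and 0.96, and GPR158, an orphan receptor, had 0.66, 0.80, 0.88 and 0.80. All 4 arrays of these genes lay well above 0, and none of them passed the adjusted test. BNIP3L, a mitophagy receptor, had 0.57, 0.31, 1.37 and 1.15, so its mean of 0.85 ± 0.58 came mostly from experiment 2. MBOAT2, a lysophospholipid acyltransferase, completed the 14 largest means above 0 at 0.76 ± 0.17.

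**Figure D1:**
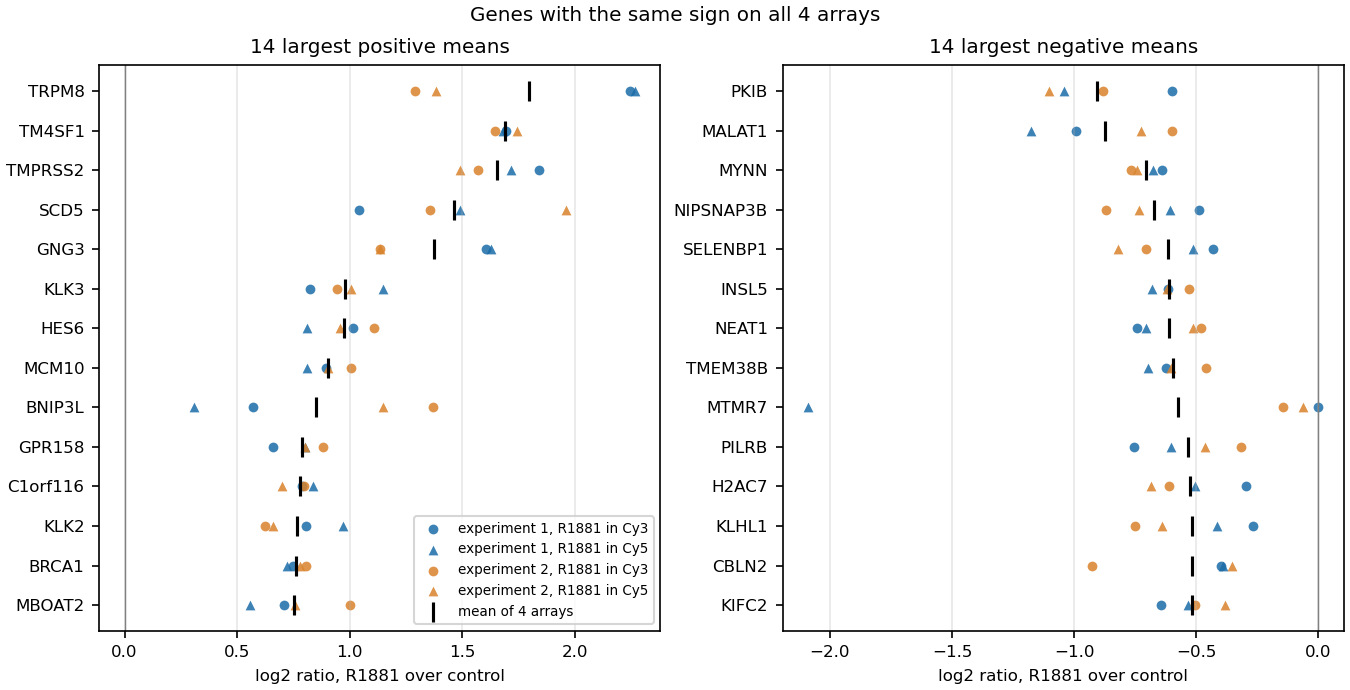
Log2 ratios of R1881 over control on each of the 4 arrays (points, coloured by experiment, shaped by dye) for the 14 largest means above 0 (left) and below 0 (right) among genes with the same sign on all 4 arrays; ticks are means. TM4SF1 lies between 1.65 and 1.75 on every array, TRPM8 splits by experiment, and the mean of MTMR7 comes from a single array at −2.09.

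Among the genes below 0, PKIB, an inhibitor of protein kinase A, had −0.60, −1.04, −0.88 and −1.10. MALAT1 had −0.99, −1.18, −0.60 and −0.73, and NEAT1, the scaffold RNA of paraspeckles, had −0.74, −0.71, −0.48 and −0.51. Both noncoding RNAs lay farther below 0 in experiment 1, and their experiments did not overlap. MYNN, a zinc finger protein gene, had −0.64, −0.68, −0.77 and −0.74, and TMEM38B, an intracellular cation channel gene, had −0.62, −0.70, −0.46 and −0.61. INSL5, an insulin-like peptide hormone gene, averaged −0.61 ± 0.05, SELENBP1, a methanethiol oxidase gene, −0.62 ± 0.20, and NIPSNAP3B −0.67 ± 0.18. MTMR7 had −2.09 on the array of experiment 1 with R1881 in Cy5 and between −0.14 and −0.00 on the others, so its mean of −0.57 rests on that array. The rest of the 14 were PILRB, an immune receptor gene, at −0.54 ± 0.20, the histone gene H2AC7 at −0.52 ± 0.18, KLHL1 at −0.52 ± 0.25, CBLN2 at −0.52 ± 0.17 and the kinesin gene KIFC2 at −0.52 ± 0.10.

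To describe the genes that repeated across all arrays, those with at least 1.25-fold on each of the 4 arrays were counted, a limit chosen after values were seen. There were 83 such genes above 0 (0.571% of all) and 27 below 0 (0.186%). Just inside the limit lay RRM1 and SLC16A1, whose lowest arrays were 0.33 and 0.32, and just outside lay AADAT and PEX10, each with 0.32. On the lower side NAMPT and NPEPL1 were just inside, and ADGRV1 and H2BC21 just outside.

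Of the 83 genes above 0, 28 belonged to the lists of DNA replication or mitosis, and 0 of the 27 genes below 0 did, while the lists hold 121 (0.832%) of the 14547 genes. The lists were drawn up with earlier results of these data known, so this overlap is not independent of them. Outside the lists stood genes such as GHR, the growth hormone receptor, at 0.67 ± 0.10, REPS2, an endocytosis protein gene, at 0.63 ± 0.07, and STK39, a kinase of ion transport, at 0.60 ± 0.04. ZMIZ1, which encodes a coregulator of the androgen receptor, had 0.60 ± 0.18. Several genes outside the lists have known roles in replication or division: WDHD1, which couples helicase and polymerase, had 0.59 ± 0.03, TRIP13 of the spindle checkpoint 0.56 ± 0.10, STIL of centriole duplication 0.57 ± 0.02, and HAUS6 of the spindle 0.43 ± 0.10. Among the 27 genes below 0, DNAJC12, a co-chaperone, had −0.49 ± 0.06, PRAC1, a gene of prostate and distal colon, −0.49 ± 0.16, SNRK, a kinase, −0.51 ± 0.02, and NAMPT, an enzyme of NAD synthesis, −0.42 ± 0.04. These genes were named after their values were seen.

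**Figure D2:**
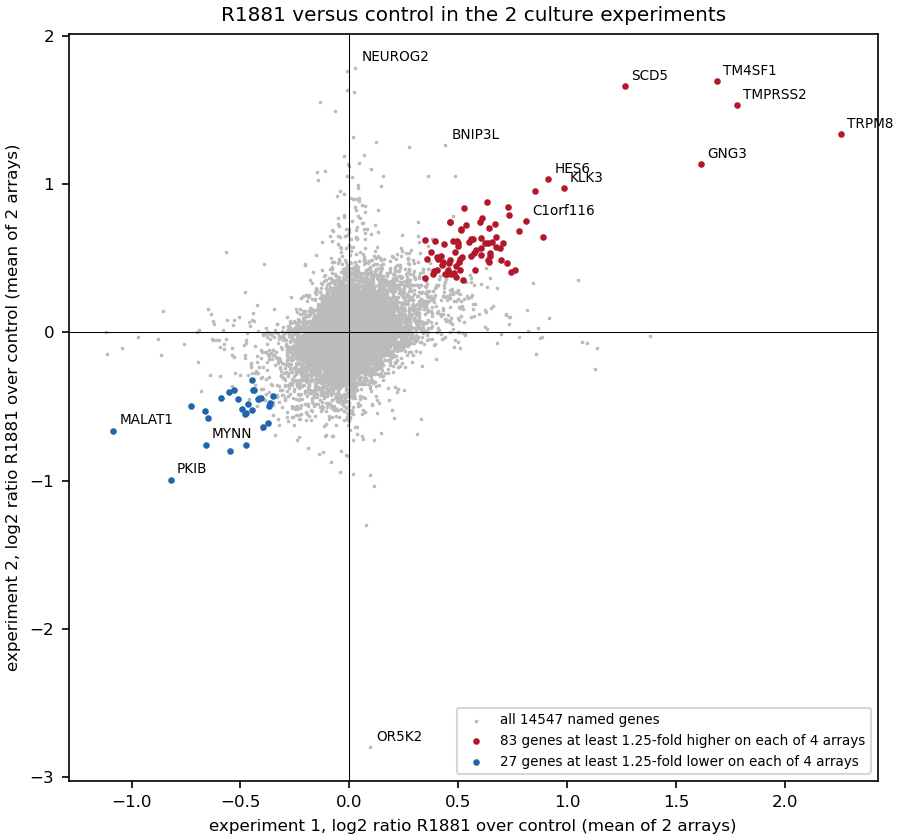
Mean log2 ratio of R1881 over control in experiment 1 (horizontal) and experiment 2 (vertical), each the mean of 2 dye orientations, for 14547 named genes; red and blue points are the 83 and 27 genes at least 1.25-fold above or below 0 on each array. TRPM8, TM4SF1, TMPRSS2, SCD5 and GNG3 stand apart at the upper right, while OR5K2 (0.10 and −2.80) and NEUROG2 (0.03 and 1.78) lie far from 0 in experiment 2 through a single array each (−5.81 and 3.55).

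Among androgen-induced genes measured in prostate cells, 45 of 55 lay above 0 (50% of all genes did), with a median of 0.18 against −0.00 over all genes. All 4 arrays were above 0 for 24 of them and below 0 for 4, against 11.7% and 13% of all genes. TMPRSS2 was the member that passed the adjusted test, and since it set the sign, the direction of the list is not independent of it. This list, too, was drawn up with earlier results of these data known. FKBP5, which works with HSP90 on steroid receptors, had 0.62, 0.59, 0.88 and 0.66, and C1orf116, known as the specifically androgen-regulated gene, had 0.79, 0.84, 0.80 and 0.70. Every array of both genes was above 0 and neither passed the test (adjusted p = 0.261 and 0.126 in limma). IQGAP2, a scaffold protein gene, had 0.74, 0.64, 0.58 and 0.56, and ZBTB16, the transcription factor PLZF, had 0.48, 0.59, 0.75 and 0.70. ALDH1A3, a retinaldehyde dehydrogenase, had 0.79 and 0.73 in experiment 1 and 0.43 and 0.41 in experiment 2.

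Several listed genes lay on the other side of 0 from their list. The metalloreductase genes STEAP1 and STEAP2 had means of −0.41 ± 0.25 and −0.27 ± 0.12, MICAL1, an actin oxidoreductase gene, had −0.36 ± 0.01, and the keratin gene KRT8 had −0.20, each below 0 on 4 of 4 arrays. STEAP4, EAF2 and MAF, also listed as induced, lay between −0.02 and −0.00. None of these passed the test. In the list of androgen-repressed genes, 21 of 28 were not above 0 and the median was −0.16, with FOLH1, prostate-specific membrane antigen, at −0.15, −0.33, −0.70 and −0.75 on the 4 arrays and UGT2B15, a glucuronosyltransferase that conjugates androgens, at −0.29, −0.35, −0.51 and −0.74. Against their list, HES6 had 0.97 ± 0.09, PSD3 0.43 ± 0.15 and TMEFF2 0.34 ± 0.03, all above 0 on 4 of 4 arrays.

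The probes of a gene often differed, and for the best known targets this set the mean. KLK3 had a probe at 1.80, 1.89, 1.79 and 1.76, another at 0.99, 1.81, 1.39 and 1.77, and a last at −0.31, −0.26, −0.35 and −0.51. The last was below 0 on every array, so the gene mean of 0.98 lies between probes of opposite sign. KLK2, a paralog of KLK3 with a similar sequence, had a probe averaging 1.65 ± 0.33 and another averaging −0.12 ± 0.02. For PMEPA1, a TGF-beta signalling inhibitor, a probe averaged 1.00 ± 0.17 while the other had −1.73 on a single array and 0.18 to 0.26 on the rest. CAMKK2, a calcium-dependent kinase, had a probe at 0.59 ± 0.20 and another at 0.02 ± 0.01. The probes of C1orf116 were both above 0 on all arrays, at 1.07 ± 0.12 and 0.49 ± 0.21. The probes' own sequences were not used here, so which transcripts each detects is not known.

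**Figure D3:**
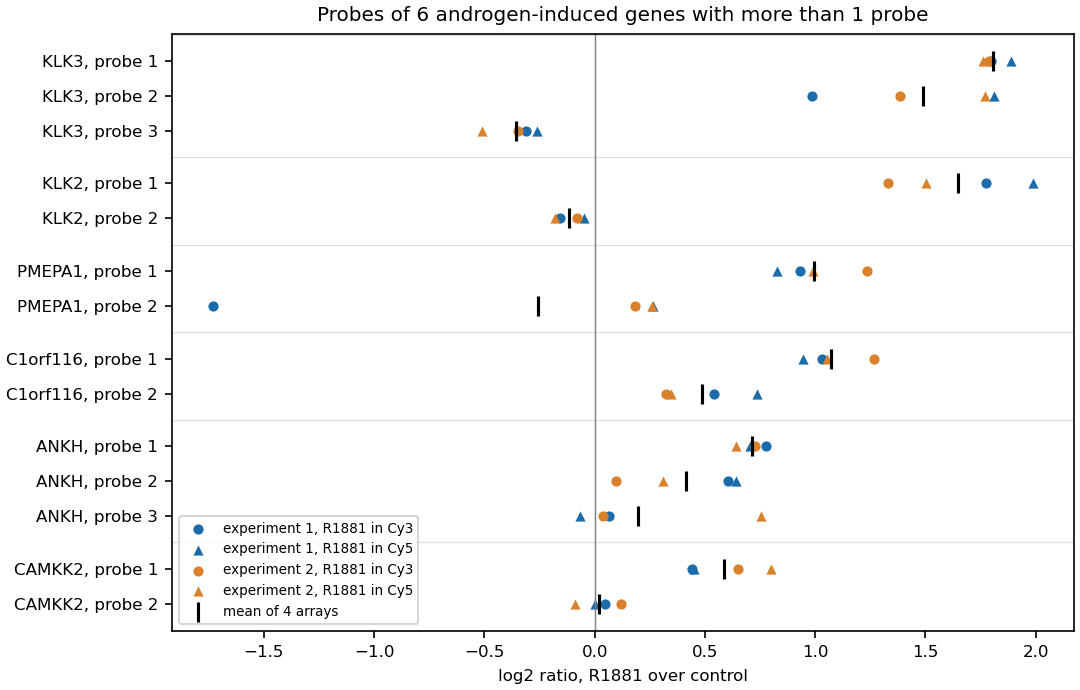
Log2 ratio of R1881 over control on each of the 4 arrays (points) and mean (tick) for each probe of 6 androgen-induced genes with more than 1 probe, ordered by mean within a gene. KLK3 and KLK2 each have probes above 1.4 on average beside a probe below 0, and a probe of PMEPA1 has 1 array at −1.73.

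Among the kallikreins, 15 secreted serine protease genes clustered on chromosome 19, the gene means of KLK3, KLK2 and KLK15 lay farthest above 0. KLK15, also expressed in prostate, had 0.58, 0.57, 0.39 and 0.26 on the 4 arrays. KLK4 averaged 0.23 with 3 of 4 arrays above 0, and KLK5, KLK7, KLK10, KLK11, KLK13, KLK14 and KLK1 lay between −0.04 and 0.03. KLK9 averaged −0.42, but it had −1.51 on the array of experiment 1 with R1881 in Cy3 and −0.09 to −0.01 on the others.

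Genes that copy DNA were mostly above 0 with R1881. Of 53 measured replication genes, 51 had a mean above 0, with a median of 0.29 (0.33 in experiment 1 and 0.21 in experiment 2). On all 4 arrays 38 were above 0 and 1 was below 0, against 11.7% and 13% of all genes. No replication gene passed the adjusted test, and 24 had an unadjusted p under 0.05 in limma, against 6.33% of all genes. MCM10, which helps to fire origins, had 0.90, 0.81, 1.00 and 0.91. RRM2, the inducible subunit of ribonucleotide reductase, had 0.74, 0.82, 0.69 and 0.68, and its partner RRM1 averaged 0.42 ± 0.04. These arrays differed little from each other, and the adjusted p of RRM2 was 0.392 in limma, whose spread is pooled with the CHX treatments. PRIM1, the primase catalytic subunit, averaged 0.67 ± 0.04, and CDC45 of the helicase complex 0.65 ± 0.07.

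The members of a complex did not have equal values. Among the helicase subunits, MCM2 had a mean of 0.55, MCM4 0.51, MCM3 0.39, MCM6 0.34, MCM7 0.21 and MCM5 0.03. MCM5 had 0.15, −0.21, 0.44 and −0.25, above 0 where R1881 was in Cy3 and below 0 where it was in Cy5. In the origin recognition complex, ORC1 had 0.38 and ORC6 0.34, while ORC3 had 0.09, ORC2 −0.05 and ORC4 −0.14, the last below 0 on 4 of 4 arrays. TK1, thymidine kinase, had 0.33 and 0.22 in experiment 1 and −0.06 and −0.10 in experiment 2.

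Genes of mitosis were also mostly above 0, with 65 of 68 above it. On all 4 arrays 53 were above 0 and 0 below 0, against 11.7% and 13% of all genes. The median of the mitosis genes was 0.34, with 0.42 in experiment 1 and 0.23 in experiment 2. In limma 0 of 68 passed the adjusted test, and 46 had an unadjusted p under 0.05, against 6.33% of all genes. TPX2, which activates Aurora A on the spindle, had 0.92, 0.42, 0.70 and 0.76. HMMR, a spindle-associated hyaluronan receptor, had 0.62, 0.65, 0.58 and 0.62, and CENPE, a kinetochore kinesin, had 0.65, 0.56, 0.74 and 0.53. The subunits of the NDC80 complex, which attaches kinetochores to microtubules, had means of 0.61 for NDC80, 0.52 for SPC25, 0.51 for SPC24 and 0.38 for NUF2. The cyclin genes CCNB2, CCNA2 and CCNB1 had 0.44, 0.38 and 0.17, and the kinase gene CDK1 had 0.31. Near 0 lay CDC20 at 0.09 and UBE2S at −0.08, both of which act in the anaphase-promoting pathway, and PLK1, which had 0.32 and 0.29 in experiment 1 and −0.01 and −0.02 in experiment 2.

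Regulators of the G1/S transition lay closer to 0, with a median of 0.07 and 26 of 36 above 0. The transcription factors E2F7 and E2F1 averaged 0.38 ± 0.16 and 0.33 ± 0.21. Among DNA repair genes 44 of 58 lay above 0, with a median of 0.09. In limma 7 of the 58 had an unadjusted p under 0.05, against 6.33% of all genes. At least 1.25-fold higher on each array were 5 of the 58, against 0.571% of all genes. They were BRCA1 at 0.75, 0.72, 0.80 and 0.78, RAD54L at 0.63 ± 0.03, PARP1 at 0.50 ± 0.01, BLM at 0.43 ± 0.02 and MSH6 at 0.42 ± 0.03. Replication-dependent histone genes, which many cells express with DNA synthesis, lay on the other side, with 14 of 53 above 0 and a median of −0.10. On all 4 arrays 24 of them were below 0, against 13% of all genes. H1-2, a linker histone, had −0.57, −0.28, −0.54 and −0.45, and H2AC6 averaged −0.43 ± 0.20. H2BC9 had 0.91, 0.04, −0.25 and 1.81, which is no stable value. Histone genes have near-identical copies, so probes may not tell them apart.

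The letters searched in the 250 bases before the start were compared over 11577 measured genes with a RefSeq promoter. CCAAT, on either strand, was present in 66.7% of the 105 replication and mitosis genes with a promoter and in 34.8% of all. TTTGAA was present in 27.6% of them against 10.4% of all, and the E2F-type letters GGCGGGAA in 13.3% against 4.01%. Outside these lists, 46 genes at least 1.25-fold higher on each array had a promoter, and CCAAT was present in 37.0% of them. TTTGAA was present in 4.35% of those 46 and GGCGGGAA in 10.9%. The hexamer AGAACA was present in 8.45% of the 71 genes at least 1.25-fold higher on each array that have a promoter. It was present in 6.82% of the 44 androgen-induced ones, in 6.67% of the 105 replication and mitosis genes and in 8.93% of all. In the sequences above, KLK3 held AGAACA 170 bases before the start, RRM2 held CCAAT at 123, 93 and 66 bases, and CCNB2 held it at 244, 120, 87 and 54 bases. CCNB2 also held AGAACA, left in lower case, 81 bases before the start, and TTTGAA at 29. HMMR held CCAAT on either strand at 177, 144, 95, 69 and 66 bases, the last pair overlapping, and TTTGAA at 28 and 22. These matches describe letters in a window and not sites in use.

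**Figure D4:**
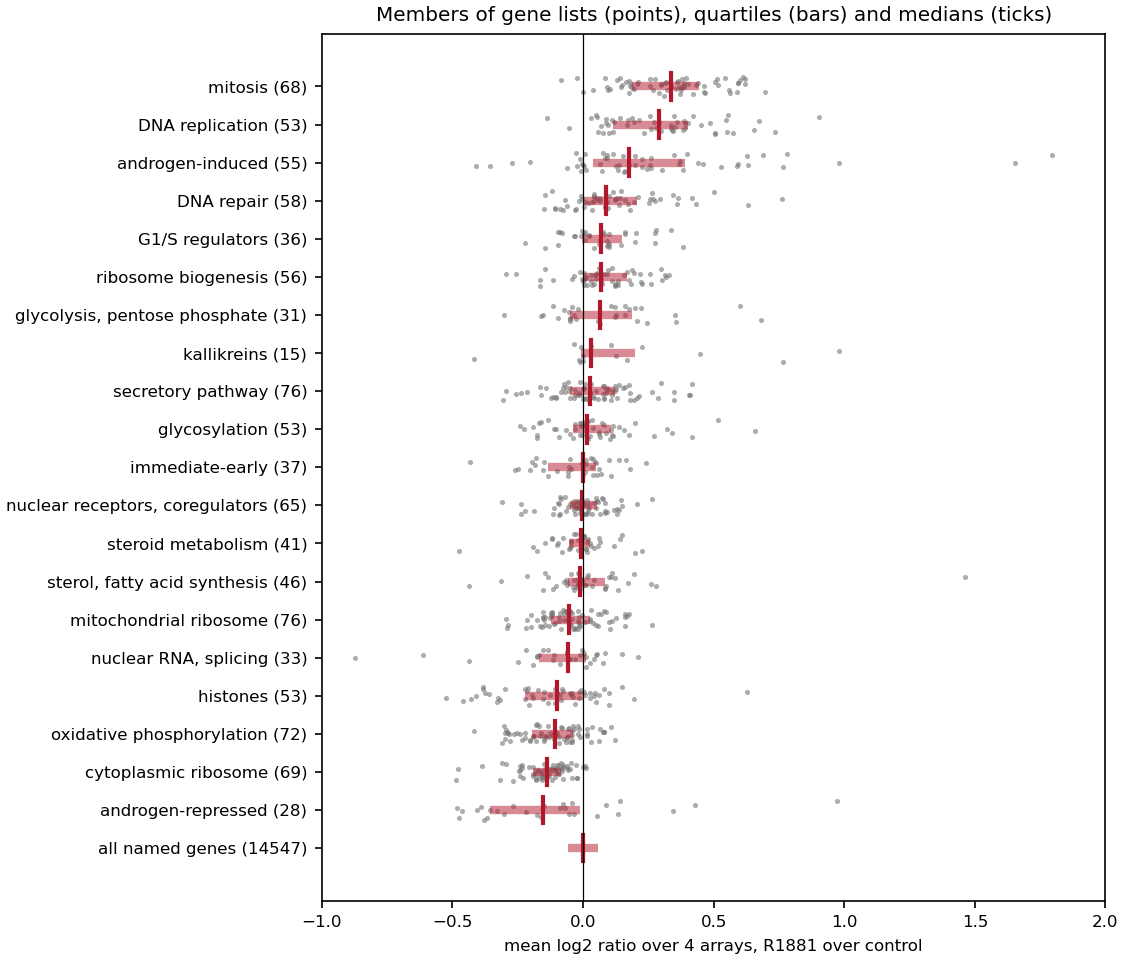
Mean log2 ratio of R1881 over control for the members (points) of 20 gene lists, with the number measured in brackets, quartiles as bars and medians as ticks, and all named genes in the bottom row. The mitosis and DNA replication lists have the highest medians, 0.34 and 0.29, and the androgen-repressed and cytoplasmic ribosome lists the lowest, −0.16 and −0.14.

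Ribosome assembly factors and ribosomal protein genes had medians on opposite sides of 0. Ribosome biogenesis factors had a median of 0.07, with 45 of 56 above 0 and GTPBP4, a nucleolar GTPase, at 0.31 ± 0.05. Cytoplasmic ribosomal protein genes had a median of −0.14, with 3 of 69 above 0. Their median was −0.21 with R1881 in Cy3 and −0.09 with it in Cy5. On all 4 arrays 20 were below 0, against 13% of all genes. An unadjusted p under 0.05 in limma was found for 6 of the 69 and for 6 of the 56 biogenesis factors, against 6.33% of all genes. RPS3 had −0.16 and −0.21 in experiment 1 and −0.74 and −0.83 in experiment 2, and RPS2 had −0.07, −0.08, −0.87 and −0.53. The lowest members thus came mostly from experiment 2. Oxidative phosphorylation genes had a median of −0.11 with 12 of 72 above 0, and 10 had an unadjusted p under 0.05 in limma. Here the median was −0.06 with R1881 in Cy3 and −0.16 with it in Cy5. UQCRQ, a subunit of complex III, had −0.12, −0.40, −0.62 and −0.52. Mitochondrial ribosome genes had a median of −0.05. Ribosomal protein genes have many near-identical copies, and 0 members of these lists passed the adjusted test.

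In metabolism and secretion the lists as a whole lay near 0, with single genes standing out. PFKFB4, which makes the activator of phosphofructokinase, had 0.57, 0.49, 0.91 and 0.77. PFKP, the platelet-type phosphofructokinase, averaged 0.60 ± 0.20, and SLC16A1, a lactate transporter, 0.36 ± 0.02, while the median of the 31 glycolysis and pentose phosphate genes was 0.06. UAP1, which makes UDP-N-acetylglucosamine for glycosylation, had 0.77, 0.58, 0.66 and 0.63, and GALNT7, a mucin-type glycosyltransferase, had 0.73 and 0.71 in experiment 1 but 0.20 and 0.03 in experiment 2. The secretory pathway list had a median of 0.03, with HSPA5, the chaperone BiP, at 0.42 ± 0.07 and ERO1A, the oxidase of disulfide formation, at 0.41 ± 0.01. Sterol and fatty acid synthesis had a median of −0.01 despite SCD5, with TM7SF2, a sterol reductase gene, at −0.44 ± 0.26 and FADS1, a desaturase gene, at 0.28 ± 0.10. Steroid metabolism and nuclear receptors with their coregulators had medians of −0.01 and −0.00, with AKR1C3, which reduces androgen precursors, at −0.19 ± 0.05 and GATA2 at −0.24 ± 0.06. The polyamine enzyme gene ODC1 had 0.50 and 0.61 where R1881 was in Cy3 against 0.10 and 0.12 where it was in Cy5.

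The remaining lists had medians between −0.06 and 0.04. They were glycosylation, tRNA synthetases and amino acid supply, polyamines, growth factor signalling, channels and transporters, apoptosis, interferon and inflammation, neuroendocrine genes, nuclear RNA and splicing, immediate-early genes, and adhesion and cytoskeleton. Among them SMAD6, an inhibitor of BMP signalling, averaged 0.40 ± 0.19, BIRC5, survivin, 0.33 ± 0.14, OAS3, an interferon-induced enzyme, 0.35 ± 0.12, B2M, the MHC class I light chain, −0.29 ± 0.17, and DDX5, an RNA helicase, −0.44 ± 0.22. VEGFA averaged −0.51 with −1.61 on a single array and −0.30 to −0.01 on the others. Markers of other cell types had medians of 0.01 (basal, 6 genes), 0.01 (stromal, 7), 0.03 (endothelial, 5) and −0.03 (leukocyte, 5). The endothelial marker VWF, von Willebrand factor, had 0.62, 0.67, 0.41 and 0.61, while PECAM1 and CDH5 averaged −0.05 and 0.08. Among the 7 luminal prostate markers the median was −0.20, with KLK3 at 0.98, FOXA1 at −0.24, HOXB13 at −0.31 and ACP3 at −0.37. That KLK3 mean is over probes of opposite sign.

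The response to R1881 alone was set beside that to R1881 given with CHX, which asks which transcripts differ while protein synthesis is blocked. The values with CHX come from 2 arrays with CHX plus R1881 against CHX on the same slide, a single dye swap labelled as biological replicate 1, so they have no replicate test. They are called the direct arrays. That both were turned the same way, like the other swaps, is an assumption: they correlated at r = −0.0427 over probes, and among genes at least 1.25-fold from 0 on both, 27 had the same sign and 29 opposite signs. With 1 of them turned, the 27 and 29 would change places and the direct means below would differ. A test of the difference was available from the arrays against control, as R1881 minus control less the contrast of CHX plus R1881 minus CHX. It called 0 of 14547 genes (0%) in limma, with 357 (2.45%) at an unadjusted p under 0.05.

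Of the 83 genes at least 1.25-fold higher on each R1881 array, 5 were also at least 1.25-fold higher on both direct arrays: ADH6, C1orf116, GHR, TRPM8 and ZBTB16. They are 5 of the 24 genes (0.165% of all) at that size on the direct arrays, and 0 of the 27 lower genes were among the 3 (0.0206%) lower there. C1orf116 averaged 0.78 with R1881 alone and had 0.88 and 0.92 on the direct arrays. ZBTB16 averaged 0.63 with R1881 alone and had 0.67 and 0.87 with CHX. Their differences between the responses without and with CHX were −0.08 (95% interval −0.39 to 0.22) and −0.14 (−0.48 to 0.20). In the contrast from the arrays against control, which does not use the direct arrays, C1orf116 had 0.87, ZBTB16 0.77, TRPM8 0.86, ADH6 0.56 and GHR 0.45. ADH6, an alcohol dehydrogenase gene, averaged 0.44 with R1881 alone and had 0.42 and 0.48 with CHX. GHR averaged 0.67 with R1881 alone and had 0.36 and 0.39 with CHX, and TRPM8 averaged 1.80 with R1881 alone and had 1.01 and 0.98 with CHX.

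Other large values were nearer to 0 with CHX. Most of these genes were named for large values with R1881 alone, and their differences contain those values. Values nearer to 0 with CHX are thus partly set by that choice, and the intervals and p-values do not allow for it. TMPRSS2 had a mean of 1.65 with R1881 alone, against 0.44 and 0.31 on the direct arrays. The contrast of CHX plus R1881 minus CHX from the arrays against control gave it 0.31. Its difference, built from that contrast, was 1.35 (95% interval 1.02 to 1.68), with an unadjusted p of 8.39e-05 and an adjusted p of 0.610 in limma. SCD5 averaged 1.46 with R1881 alone, against −0.33 and −0.29 on the direct arrays and −0.44 in that contrast. Its difference of 1.90 (1.44 to 2.36) had the lowest unadjusted p, 7.66e-05 in limma. TM4SF1 averaged 1.69 with R1881 alone, against 0.26 and 0.20 with CHX. KLK3 averaged 0.98 with R1881 alone, against 0.25 on both direct arrays, and it fell by 1.54 with CHX alone (log2, CHX minus control). Each of these KLK3 values averages 3 probes, which had opposite signs with R1881 alone. Unlike these, TMEFF2 changed little, with 0.34 with R1881 alone and 0.33 and 0.29 with CHX. UGT2B15 lay on the other side of 0, with −0.47 with R1881 alone, against 0.27 and 0.25 with CHX.

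Replication and mitosis genes lay near 0 with CHX. Their median was 0.33 with R1881 alone and −0.03 on the direct arrays, where 40 of 121 lay above 0 (51.1% of all genes did). In the contrast of CHX plus R1881 minus CHX from the arrays against control their median was 0.02, of the other sign. The difference built from that contrast was above 0 in 112 of 121 members (47.2% of all genes), with a median of 0.32. In limma 23 of the 121 had an unadjusted p under 0.05, against 2.45% of all genes. The difference contains the values with R1881 alone, which lay mostly above 0 in these lists. The lists were also drawn up with earlier results of these data known. These counts are thus not independent of the values with R1881 alone. TPX2 averaged 0.70 with R1881 alone, against −0.07 and −0.00 on the direct arrays and −0.25 in that contrast. Its difference, built from the contrast, was 0.94 (95% interval 0.68 to 1.21, limma adjusted p = 0.786). MCM10 averaged 0.90 with R1881 alone, against 0.02 and −0.06 with CHX, and HMMR 0.62 against −0.18 and −0.19. TPX2, MCM10 and HMMR were named for large means with R1881 alone, which the interval and p-value do not allow for. With CHX alone (CHX minus control), RRM2 had −2.80 and the repair gene BRCA1 −1.21, while TPX2 had −0.05. The part of that shift in the differences was not tested.

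**Figure D5:**
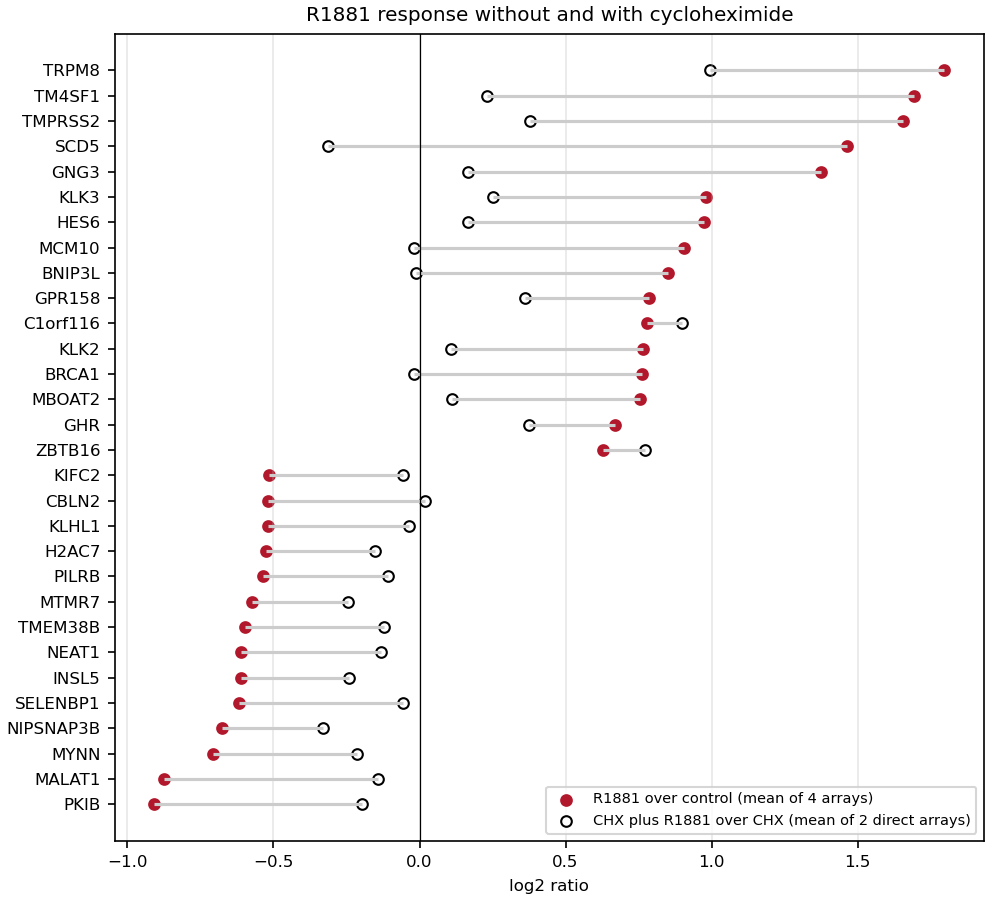
Mean log2 ratio of R1881 over control (filled, 4 arrays) and of CHX plus R1881 over CHX (open, 2 direct arrays) for the 14 largest means above and below 0, with GHR and ZBTB16 added. C1orf116 and ZBTB16 have open points to the right of the filled ones, SCD5 has an open point below 0, and most genes below 0 with R1881 alone have open points nearer to 0.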

How the data were processed

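The authors deposited 1 log ratio per probe and array, taken here as log2, for 27648 probes on 14 arrays with 0 missing values. Per the labels' protocols, RNA was amplified before dye coupling. Image analysis, background correction, normalization and log base are not given in the sources used here. The files hold no intensities, so dim spots were not set apart, and the number of arrays limits the precision. Every array was multiplied by −1 (TMPRSS2 had −1.65 as deposited). Probes were named through their accession (14718), a current symbol (1808), an older symbol (1029) or kept as given (156), and 9937 stayed unnamed. Of 14547 genes, 2057 had more than 1 probe.

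Both orientations of a swap hold the same extracts and were averaged, leaving n = 2. The p-values measure the spread between 2 culture experiments pooled over R1881, CHX and both, and not the spread of R1881 alone. TM4SF1, for example, had an SD of 0.0057 between its R1881 experiments but a standard error of 0.157 in the fit. The 6 ratios against control (R1881, CHX and both) were fitted together in limma 3.58.1 (R 4.3.3) with a pooled spread, 3 residual and 2.57 prior degrees of freedom, and Benjamini-Hochberg adjustment over all genes at 0.05. In data simulated for R1881 versus control over 14547 genes this fit recovered 64% of changes of 0.5, 92% of 1 and 100% of 1.5 and 2 (log2), and 3.78% of its calls were unchanged genes. The simulated noise was normal, independent and drawn from the fit's own spread, with 50 genes changed at each size. In the real data TRPM8 at 1.80, TM4SF1 at 1.69 and SCD5 at 1.46 were not called, so these shares do not give the power here.

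Members, the 28 functional and 5 marker lists, and tests were chosen with earlier results of these data known. The text names the 14 largest means above and below 0 among genes with 1 sign on every array, up to 3 such members per list with the largest means, and TMPRSS2, KLK3, KLK2 and FKBP5. Other genes were named after their values were seen. The alternatives were other blocks, normalizations, dyes, probes, moderation, thresholds and left-out experiments.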

Additional observations from a re-analysis of the deposited data

Results flagged for a closer look

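In 5 of 95 named genes a single array lay far from the other 3, and chance alone sets apart about 1 gene in 20. MTMR7 had −2.09 on the array of experiment 1 with R1881 in Cy5, and OAZ3, an ornithine decarboxylase antizyme gene, had −1.04 on the same array. CBLN2 had −0.93 on the array of experiment 2 with R1881 in Cy3, where TUBA1A, an alpha-tubulin gene, had −0.0497 against −0.53 to −0.49 on the others. E2F7 had 0.76 on the array of experiment 2 with R1881 in Cy5, against 0.23 to 0.29 elsewhere.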

How the results depend on the processing

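Against 1 gene called for R1881 versus control, limma called 2 with the replicate block (TMPRSS2 and SCD5), 172 with a random block (104 higher, 68 lower), 135 with a random block and a dye term, 744 after quantile normalization, 89 after scaling and 2 with each probe alone (TMPRSS2 and KLK3). Leaving out an experiment of any treatment gave 0 to 1 calls. The call was TM4SF1 instead of TMPRSS2 in the R1881 experiments alone (TMPRSS2 adjusted p = 0.153) and without either CHX experiment (0.0501), and TMPRSS2 had 0.183 without either experiment of CHX plus R1881. Quantile normalization and scaling give all arrays a like spread, which widens the R1881 ratios by construction. For the difference without and with CHX the count of 0 became 2 with a random block, 2 with a random block and a dye term (added after seeing the data), 1 after quantile normalization and 1 after scaling. Same-numbered experiments of different treatments deviated together (r = 0.166 to 0.564), but the labels do not say that a number marks a shared batch.

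The 83 genes at least 1.25-fold higher on each array became 343 at 1.1-fold, 14 at 1.5-fold, 323 after quantile normalization, 194 after scaling, 170 and 136 from the Cy3 and Cy5 orientations alone, and 202 to 218 without an experiment. The 27 lower genes became 236, 3, 195, 133, 52, 90, and 81 to 275, in that order. Fewer arrays have to pass in the last 3 settings. These alternatives, and the count of opposite signs on the direct arrays, were chosen after seeing the data. Of 1520 values of named genes, 0 reversed, 181 passed the threshold newly and 7 lost it, all of TMPRSS2. Of 35 list medians, 20 kept their sign in all 6 settings, those of replication, mitosis, histones and ribosomal proteins among them.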

Other observations

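The 9937 probes without a gene name held 35 with at least 1.25-fold higher on each of the 4 arrays (0.352%) and 13 lower (0.131%). In 25 named genes a single array was at least 2 from 0 (log2) while the other arrays stayed within 0.5. With both direct CHX arrays taken to run the same way, genes at least 1.25-fold higher on both but not on each R1881 array included PLA2G2A, a secreted phospholipase, which had −0.39 with R1881 alone and 0.35 and 0.46 with CHX, CLU, clusterin, with −0.15 and then 0.45 and 0.43, and ARHGEF26, a RhoG exchange factor, with 0.48 and then 0.81 and 0.67. BDNF, EPS8 and GARNL3 were the 3 that were lower on both direct arrays, and with R1881 alone they had −0.06, −0.03 and −0.11. These genes were named after their values were seen.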
